A study of Mus musculus with 6 samples.

Results

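Hox genes encode transcription factors that bind DNA through a homeodomain, and in mammals they lie in clusters named HoxA to HoxD. Genes at the same position in different clusters are paralogues, and the position number runs from the anterior-acting to the posterior-acting end of a cluster. In blood, HoxA and HoxB genes are used by stem and progenitor cells, Hoxa9 acts with its partner Meis1 in their expansion, and mouse Hoxb5 is known as a marker of long-term haematopoietic stem cells. The rows described here are those of the deposited table whose symbol is Hoxa, Hoxb, Hoxc or Hoxd followed only by digits. These were 38 of 38926 rows: 11 of HoxA (chromosome 6), 10 of HoxB (chromosome 11), 9 of HoxC (chromosome 15) and 8 of HoxD (chromosome 2). The rule used no measured value.

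RNA was sequenced from cells of adult mouse marrow sorted as Lin- Sca1+ cKit+ (LSK). Blood stem cells and the progenitors next to them fall in this gate. The labels give 3 libraries from Drd2 Drd3 double knockout mice (KO), which lack the dopamine receptors D2 and D3, and 3 libraries from wild type mice (WT). Animals of both groups were C57BL/6, 8 to 12 weeks old and untreated, and the cells came from femur and tibia. The labels give no allele design and leave unsaid whether each replicate was its own animal. The spread behind the p-values is therefore that between these libraries and may be technical. Values are FPKM, reads per kilobase of gene and per depth as the authors scaled them.

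The labels and the data were at odds over the targeted genes, and the KO-labelled libraries differed among themselves. The libraries labelled KO listed Drd3 at 1.62, 3.08 and 3.04 FPKM and those labelled WT at 0, and Drd2 was at 0 in all 6, so every direction given here is between libraries labelled KO and libraries labelled WT. KO-labelled replicates 1 and 3 had no reads of the Y-linked gene Ddx3y, which was at 12.5 to 15.1 FPKM in the other 4 libraries. The X-linked transcript Xist was at 1.96 and 2.01 FPKM in these 2 libraries and at 0 in the other 4. The same 2 libraries held the immunoglobulin light chain transcript Igkc at 3180 and 1170 FPKM, against at most 4.93 FPKM elsewhere. No WT-labelled library had the sex-linked or the Igkc pattern, so both are partly confounded with the label. The gate markers Kit and Ly6a (Sca1) were present, with means of 100.7 and 132.7 FPKM in the KO-labelled and 120.7 and 121.5 FPKM in the WT-labelled libraries. The FPKM values could be turned back into whole reads, 5245255 to 7143455 per library. Pearson's r on log2(FPKM + 1) was 0.963 to 0.97 among KO-labelled libraries, 0.983 to 0.985 among WT-labelled libraries and 0.949 to 0.956 between the groups.

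Few Hox genes were measured at more than trace level: a run of neighbours in HoxA, and Hoxb5 in HoxB. Of the 38, 11 were at 0 in all 6 libraries, 27 had a read in at least 1 library and 11 had a read in every library. In the libraries labelled WT, summed Hox FPKM was 35.4, 34.4 and 36.6, and HoxA made up 96.7% ± 0.882 of it (SD, n = 3). HoxB held 2.84% ± 0.703, HoxC 0.398% ± 0.219 and HoxD 0.0836% ± 0.0883. Most of the HoxA signal came from the 5 consecutive genes Hoxa5, Hoxa6, Hoxa7, Hoxa9 and Hoxa10, which together stood at 33.9 ± 0.604 FPKM in the WT-labelled libraries. On the posterior side Hoxa11 and Hoxa13 together gave 0.0432 ± 0.0748 FPKM.

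**Figure D1:**
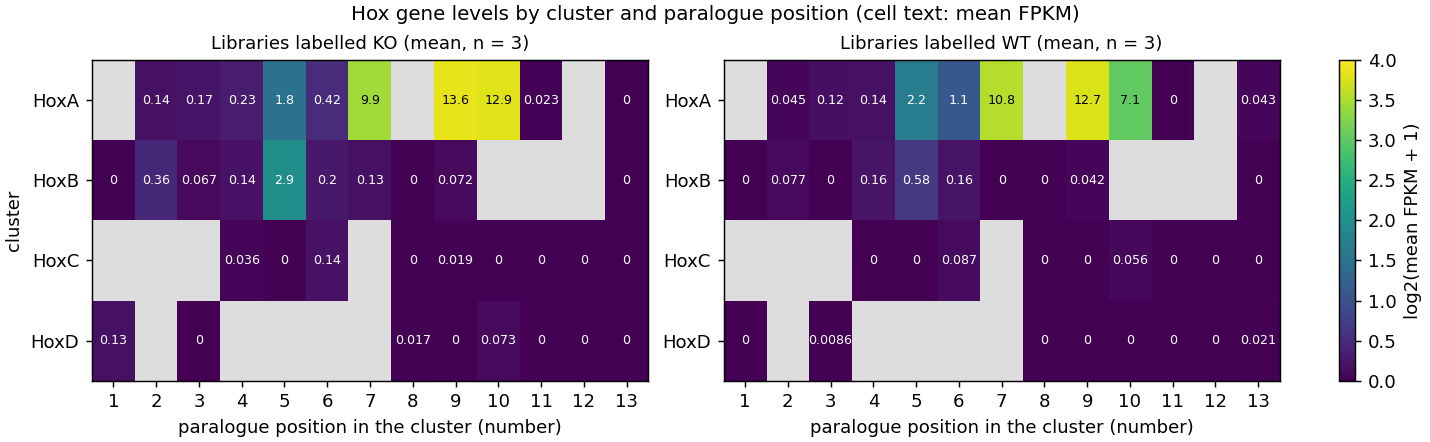
Mean FPKM of each Hox gene by cluster (rows) and paralogue position (columns), for the 3 libraries labelled KO on the left and the 3 labelled WT on the right; colour is log2(mean FPKM + 1), and grey positions hold no gene shown here. The signal lies in Hoxa5 to Hoxa10 in both panels, and Hoxb5 stands out from its cluster at 2.92 FPKM in the KO-labelled and 0.577 FPKM in the WT-labelled libraries.

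Levels in the WT-labelled libraries could be ordered down to Hoxb5 and not below, with Hoxa9 and Hoxa7 close together. Hoxa9 was highest at 12.7 ± 1.05 FPKM (SD, n = 3 here and for every mean that follows), followed by Hoxa7 at 10.8 ± 1.01, Hoxa10 at 7.11 ± 0.37, Hoxa5 at 2.2 ± 0.314, Hoxa6 at 1.14 ± 0.296 and Hoxb5 at 0.577 ± 0.251 FPKM. For each neighbouring pair in this order, down to Hoxb5 and Hoxb6, the ranges of the 3 libraries did not overlap. The place of Hoxa6 rests on the gene length that the authors used, which differs from that of GENCODE M21. The margin between Hoxa9 and Hoxa7 was small: the lowest Hoxa9 value and the highest Hoxa7 value both round to 11.7 FPKM. Hoxa9, the most abundant, was higher than 55.2% of the 11371 genes tested there, Hoxa5 than 14.9% and Hoxb5 than 0.888%. From Hoxb6 (0.158 ± 0.0774 FPKM) and Hoxb4 (0.157 ± 0.101 FPKM) downward, neighbours overlapped in every case.

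By paralogue position, the 9, 7 and 10 groups carried the most in the WT-labelled libraries. Paralogue group 9 summed to 12.7 ± 1.12 FPKM, group 7 to 10.8 ± 1.01 and group 10 to 7.17 ± 0.293 FPKM. Groups 5 and 6 followed with 2.78 ± 0.547 and 1.38 ± 0.29 FPKM. Groups 8, 11 and 12 had no read there, and group 13 had reads in WT-labelled replicate 3 alone (0.194 FPKM).

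The comparison of libraries labelled KO with those labelled WT asks whether Hox levels of LSK cells differ when the dopamine receptors D2 and D3 are targeted. Hoxa10 and Hoxb5 rose, while Hoxa9, Hoxa7 and Hoxa5 did not pass the test. Hoxa10 was 1.82-fold and Hoxb5 5.06-fold higher by the group means in FPKM. The other 33 members had a mean under 1 FPKM over the 6 libraries and were not tested. The test was limma on log2(FPKM + 1), with Benjamini-Hochberg adjustment over all 11371 genes tested and a call where the adjusted p was under 0.05. It called 10.9% of them, 5.48% higher and 5.43% lower in the KO-labelled libraries. Of the 5 Hox genes tested, 2 were called, both higher. Hoxb5 averaged under 1 FPKM in the WT-labelled libraries and entered the test through its KO-labelled values, so this count of 2 is given as a description. In sorted bulk RNA, fewer cells of a type and less RNA per cell cannot be told apart. The median log2 fold change of the 5 was 0.09, against -0.002 for all genes tested.

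**Figure D2:**
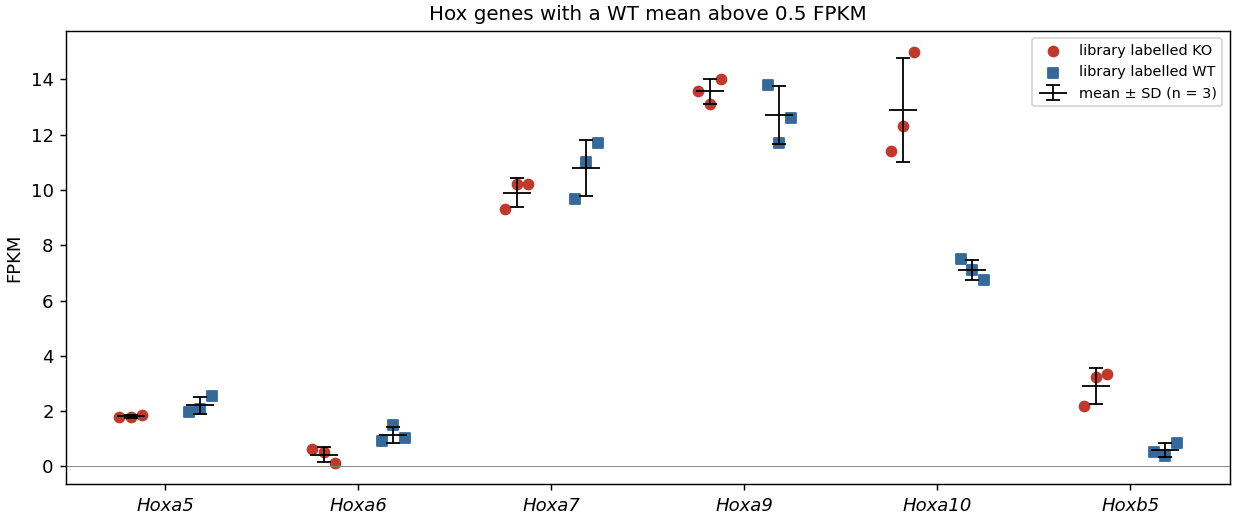
FPKM in each library for the 6 Hox genes with a mean above 0.5 FPKM in the WT-labelled libraries; circles are libraries labelled KO, squares those labelled WT, and bars give the mean ± SD (n = 3). Hoxa10 and Hoxb5 are higher in every KO-labelled library, Hoxa7 and Hoxa9 overlap between the groups, and Hoxa5, which did not pass the test, and Hoxa6, which was below its limit, are lower in every KO-labelled library.

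Hoxa10 (chr6:52231197-52240854, minus strand, build GRCm38, the same as mm10), an Abd-B class gene of the posterior part of the cluster, had 11.4, 12.3 and 15 FPKM in the KO-labelled libraries (270, 278 and 267 reads). It was at 7.49, 7.10 and 6.76 FPKM in those labelled WT (153, 136 and 138 reads). Every KO-labelled library lay above every WT-labelled library. On the log2(FPKM + 1) scale the difference was 0.77 ± 0.14 SE (limma adjusted p = 0.0108). The call was lost without WT-labelled replicate 2 (adjusted p = 0.0551, log2 fold change 0.77) and without KO-labelled replicates 1 and 3 (adjusted p = 0.0734, 0.71; 0.0072 to 0.0734 over its alternatives). Where KO-labelled replicates 1 and 3 were left out, here and below, the fit takes its spread from the WT-labelled libraries and assumes that the lone KO-labelled library varies like them. The exons of Hoxa10 overlap those of no other gene in the GENCODE M21 annotation.

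Hoxa9 (chr6:52223100-52231089, minus strand), the next gene of the cluster and a regulator of progenitor growth, was at 13.6, 13.1 and 14 FPKM in the KO-labelled libraries. In the WT-labelled libraries it was at 13.8, 11.7 and 12.6 FPKM. These ranges overlap, and the log2 fold change was 0.09 with a 95% interval of -0.18 to 0.36 (limma adjusted p = 0.672). Hoxa9 rested on the most reads of any member, 1477 in the KO-labelled and 1304 in the WT-labelled libraries. Its exons share 85 bases with the microRNA gene Mir196b, which was listed at 0 in every library.

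The neighbours Hoxa10 and Hoxa9 thus stood in different proportion in the groups, a quantity that no scaling of a library can alter. The ratio of Hoxa10 to Hoxa9 FPKM was 0.84, 0.942 and 1.08 in the KO-labelled libraries. It was 0.542, 0.605 and 0.538 in the WT-labelled libraries. The difference of the mean log2 ratios was 0.76 (exact two-sided permutation p = 0.1, the smallest that 3 against 3 libraries allow, and 0.133 adjusted over 4 ratios). Hoxa10 to Hoxa7 differed by 0.97 and Hoxb5 to Hoxa5 by 2.68 on the log2 scale, each with the same exact p of 0.1, and Hoxa7 to Hoxa9 by -0.22 (exact permutation p = 0.3). In the first 3 of these ratios the groups did not overlap. The ratios were chosen after the values were seen.

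**Figure D3:**
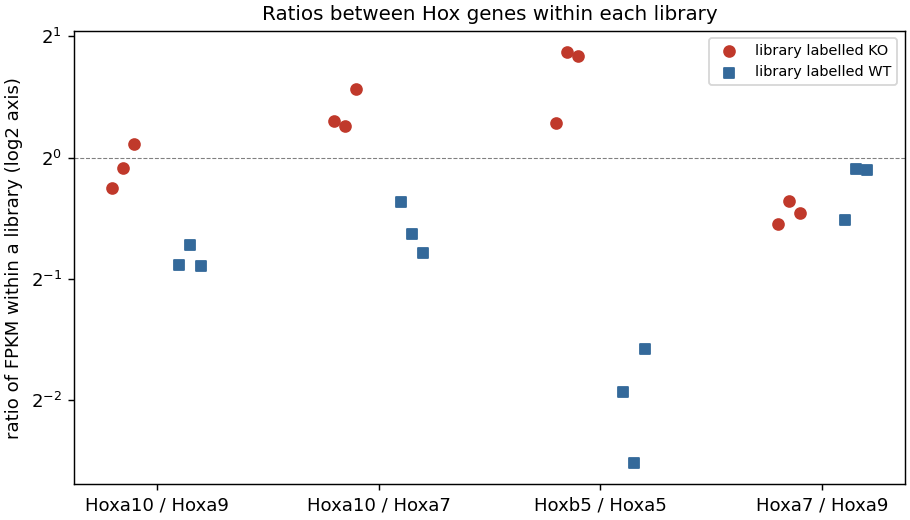
Ratio of FPKM between pairs of Hox genes within each library, on a log2 axis; circles are libraries labelled KO and squares those labelled WT, and the dashed line marks equal levels. The Hoxa10 to Hoxa9 ratio runs from 0.84 to 1.08 in the KO-labelled libraries and from 0.538 to 0.605 in the WT-labelled libraries, and Hoxa7 to Hoxa9 overlaps between the groups.

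The 250 bases before the starts of these genes, as RefSeq gives them in build GRCm38.p6, are shown because the genes are neighbours of which 1 passed the test. Capitals mark CpG, the dinucleotide that is methylated in mammals and is dense in CpG islands. RefSeq lists starts for Hoxa10 behind chr6:52234940-52235189 and behind chr6:52240855-52241104, and for Hoxa9 behind chr6:52227371-52227620, all on the minus strand. The first Hoxa10 window holds 20 CpG, more than 82.1% of the 32851 mouse promoters in the table, the second 7 and the Hoxa9 window 3.
Hoxa10, nearer start: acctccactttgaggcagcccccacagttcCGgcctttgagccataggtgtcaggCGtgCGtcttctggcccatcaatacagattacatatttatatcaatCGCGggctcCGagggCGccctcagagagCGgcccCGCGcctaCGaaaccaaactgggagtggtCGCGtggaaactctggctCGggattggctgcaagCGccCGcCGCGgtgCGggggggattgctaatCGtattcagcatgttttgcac
Hoxa10, farther start: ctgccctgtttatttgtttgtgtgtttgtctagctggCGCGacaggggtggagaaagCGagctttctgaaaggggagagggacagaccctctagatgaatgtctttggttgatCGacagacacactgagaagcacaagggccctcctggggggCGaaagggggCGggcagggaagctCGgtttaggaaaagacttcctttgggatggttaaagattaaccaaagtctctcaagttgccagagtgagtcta
Hoxa9: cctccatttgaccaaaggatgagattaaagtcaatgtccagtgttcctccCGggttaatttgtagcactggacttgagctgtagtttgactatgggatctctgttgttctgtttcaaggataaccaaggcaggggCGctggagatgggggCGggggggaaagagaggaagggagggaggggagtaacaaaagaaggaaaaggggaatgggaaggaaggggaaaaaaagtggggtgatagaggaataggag

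Promoters were listed for 21 of the 38 Hox genes, 23 windows in all, with a median of 13 CpG against 6 over all promoters. The letters TGACAG (a Meis motif), TGATTTAT (a Pbx-Hox motif) and TTTATG (a Cdx motif), none of which contains another, were searched in these 250 bases on either strand. They were present in 2, 0 and 4 of the 23 Hox windows, and in 15.9, 0.837 and 10.8% of all promoters. The Hoxa10 and Hoxa9 windows held none of these 3 strings.

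Hoxb5 (chr11:96303336-96306121, plus strand), the stem cell marker of the HoxB cluster, was at 2.17, 3.24 and 3.34 FPKM in the KO-labelled libraries (44, 63 and 51 reads). In the WT-labelled libraries it was at 0.513, 0.364 and 0.854 FPKM (9, 6 and 15 reads). Each KO-labelled value was above each WT-labelled value. The fitted difference was 1.31 ± 0.23 SE in log2(FPKM + 1) (limma adjusted p = 0.00929), which understates the change of a gene this low. On recovered reads with voom it was 2.29 (adjusted p = 0.00421), and it passed in all 12 alternatives that gave a value (adjusted p 0.00421 to 0.0475). In KO-labelled replicate 2, the library with Y-linked transcripts and little Igkc, Hoxb5 was at 3.24 FPKM. With this library as the only KO-labelled one, its spread assumed from the WT-labelled libraries, the adjusted p was 0.0475.

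The table gives no strand, and Hoxb5os, an antisense gene listed as 0610040B09Rik, runs across the Hoxb5 locus. In GENCODE M21 the overlap of their exons is 100 of the 2786 exon bases of Hoxb5 (3.59%). Hoxb5os was at 3.19, 2.49 and 1.59 FPKM in the KO-labelled libraries (16, 12 and 6 reads) and at 0.921, 3.19 and 0.92 FPKM in the WT-labelled libraries (4, 13 and 4 reads). The groups overlap, and it did not pass (log2 fold change 0.43 ± 0.33 SE, limma adjusted p = 0.436).

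Hoxa5 (chr6:52201754-52204587), the HoxA paralogue of Hoxb5, did not follow it. It was at 1.77, 1.77 and 1.87 FPKM in the KO-labelled libraries (24, 23 and 19 reads), against 1.96, 2.09 and 2.56 FPKM in the WT-labelled libraries (23, 23 and 30 reads). The groups did not overlap, but Hoxa5 did not pass (log2 fold change -0.19, 95% interval -0.6 to 0.23, limma adjusted p = 0.551).

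Hoxa7 (chr6:52214491-52221854), a middle-group gene of the cluster, was at 9.30, 10.2 and 10.2 FPKM in the KO-labelled libraries. It was at 9.69, 11 and 11.7 FPKM in the WT-labelled libraries. The ranges overlap (log2 fold change -0.11, 95% interval -0.4 to 0.18, limma adjusted p = 0.625). Of its exon bases, 20.4% lie opposite the antisense gene Hoxaas3, which had 14, 9 and 4 reads in the KO-labelled and 7, 8 and 2 in the WT-labelled libraries.

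Hoxa6, which lies between Hoxa5 and Hoxa7, averaged 0.778 FPKM over the 6 libraries and so fell under the limit of 1 FPKM. Its FPKM implies a gene length of at least 1731 bases, against 874 exon bases in GENCODE M21. Its level, and so its place under the limit, rests on the authors' length. Hoxa6 had 8, 6 and 1 reads in the KO-labelled libraries (0.641, 0.502 and 0.106 FPKM). There were 10, 15 and 11 Hoxa6 reads in the WT-labelled libraries (0.925, 1.48 and 1.02 FPKM). Every KO-labelled value was the lower. In the fit without a limit on low values its log2 fold change was -0.61 (limma adjusted p = 0.164, unadjusted p = 0.0188). Hoxa6 was the untested member closest to the limit, and Hoxb5 with a mean of 1.75 FPKM was the tested member closest to it.

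The remaining HoxB genes were near the lower limit of measurement. Without Hoxb5, the cluster summed to 0.976 ± 0.39 FPKM in the KO-labelled and 0.434 ± 0.208 FPKM in the WT-labelled libraries. Hoxb4, a gene known to expand mouse stem cells when overexpressed, had 5, 6 and 1 reads in the KO-labelled and 7, 3 and 2 in the WT-labelled libraries. Its log2 fold change in the fit without a limit was -0.02 (limma adjusted p = 0.931). Hoxb2 had 6, 5 and 12 reads in the KO-labelled and 1, 1 and 3 in the WT-labelled libraries, and Hoxb3 had 2, 1 and 1 against 0, 0 and 0. Neither passed without a limit (limma adjusted p = 0.253 and 0.414). Of the exon bases of Hoxb2 and Hoxb3, 27.3 and 52.9% lie opposite the antisense gene Hoxb3os, which had 4, 13 and 8 reads in the KO-labelled and 8, 4 and 6 in the WT-labelled libraries.

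Genes of the anterior end of HoxA were as low. Hotairm1, a noncoding gene of the anterior end (listed as Gm15051), had 2, 5 and 3 reads in the KO-labelled and 1, 0 and 0 in the WT-labelled libraries. Hoxa3 had 7, 9 and 7 reads in the KO-labelled and 3, 3 and 9 in the WT-labelled libraries, and Hoxa4 had 2, 2 and 3 against 1, 1 and 2, so both overlap between the groups. Hoxa2 had 3, 4 and 0 reads in the KO-labelled and 0, 1 and 1 in the WT-labelled libraries.

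**Figure D4:**
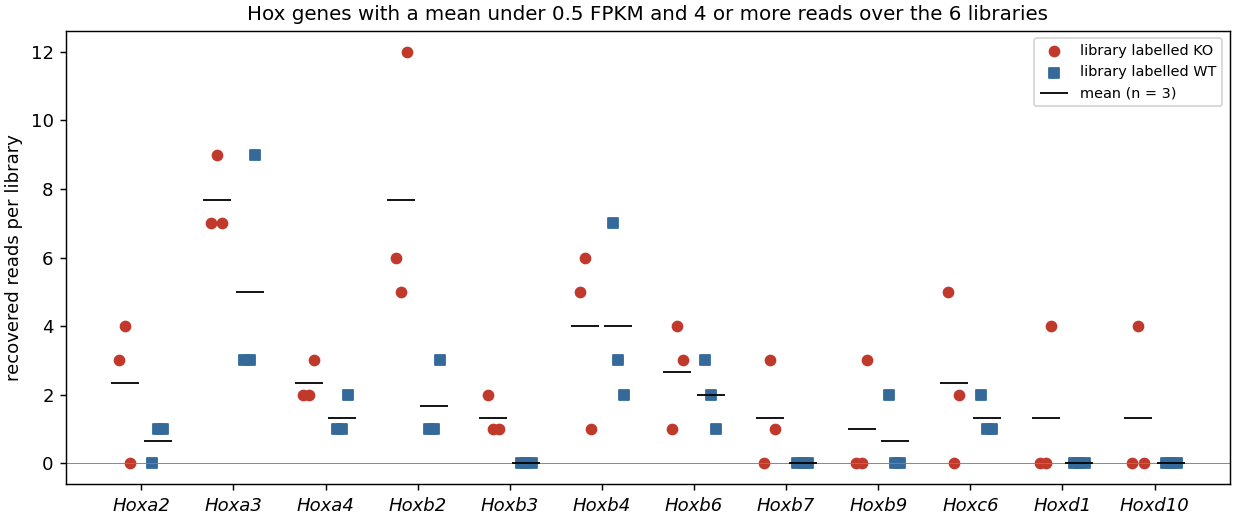
Recovered reads per library of 12 Hox genes that were not tested, averaged under 0.5 FPKM and had 4 or more reads in all; circles are libraries labelled KO, squares those labelled WT, and dashes give the mean (n = 3). Hoxb2 and Hoxb3 are higher in every KO-labelled library, at 1 to 12 reads, and the others overlap.

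Of the 22 Hox genes that had a read but were not tested, 3 were higher in every KO-labelled library and 1 was lower. Among all 8002 genes under 1 FPKM with a read, 5.75% were higher and 4.25% lower in this sense. With no limit on low values, 27 Hox genes were fitted and Hoxa10 and Hoxb5 were called (limma adjusted p = 0.0336 and 0.0321), against 3.04% of all 19373 genes. Reads were seen of 23 Hox genes in the KO-labelled and of 18 in the WT-labelled libraries, and of 18, 16 and 18 against 13, 14 and 16 per library. Of all genes, 16220, 15986 and 15632 had a read in the KO-labelled and 15753, 15672 and 15822 in the WT-labelled libraries. Recovered reads were 7143455, 6813923 and 5245255 in the KO-labelled and 6201265, 5903055 and 6196096 in the WT-labelled libraries. Counts of Hox genes that rest on a few reads also depend on this depth. Summed over the clusters, Hox reads scaled to 1000000 recovered reads came to 158, 164 and 183 in the KO-labelled libraries and 140, 129 and 140 in the WT-labelled libraries.

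HoxC and HoxD were close to silent in every library. HoxC had 10 reads in the KO-labelled and 6 in the WT-labelled libraries over its 9 genes, and HoxD had 9 and 2 over its 8. No gene of these clusters exceeded 0.396 FPKM in any library. Hoxc6 was the only HoxC gene with a read in more than 1 library, with 5, 0 and 2 reads in the KO-labelled and 2, 1 and 1 in the WT-labelled libraries. The 4 reads of Hoxd1 all came from KO-labelled replicate 3 and the 4 of Hoxd10 from KO-labelled replicate 2. Hoxb1, Hoxb8, Hoxb13, Hoxc5, Hoxc8, Hoxc11, Hoxc12, Hoxc13, Hoxd9, Hoxd11 and Hoxd12 were at 0 throughout. For these 11, a count of 0 allows up to 3 reads, which is 0.0987 to 0.536 FPKM in a library depending on gene length and depth.

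Posterior Hox genes are used by limb and marrow stroma, so stromal markers are given beside them. Each of 14 stromal markers had reads in some library, and the summed level was 19.4 to 27.5 FPKM in the KO-labelled and 28.4 to 46.4 FPKM in the WT-labelled libraries. Of the 6 tested 2 fell (Pdgfrb and Cxcl12, limma adjusted p = 0.0126 and 0.0494), where 5.43% of all genes tested were called lower. The call of Pdgfrb was lost without WT-labelled replicate 2 (adjusted p = 0.065). That of Cxcl12 was lost on leaving out any single library but WT-labelled replicate 1 (adjusted p 0.0869 to 0.174). The collagen gene Col1a1 was highest at 4 FPKM in WT-labelled replicate 3, the library that also held the reads of Hoxa13, Hoxc10 and Hoxd13. Hoxd10, Hoxa11, Hoxb9 and Hoxc9 had their few reads in libraries with less Col1a1 than this. The 4 reads of Hoxd10 were in KO-labelled replicate 2 (Col1a1 at 0.132 FPKM) and the 1 read of Hoxa11 in KO-labelled replicate 3 (0.393 FPKM). Hoxb9 had 2 reads in WT-labelled replicate 1 (0.146 FPKM) and 3 in KO-labelled replicate 3. The 1 read of Hoxc9 was in KO-labelled replicate 1 (0.465 FPKM). Dcn and Sparc, genes of the extracellular matrix, had higher means in the KO-labelled libraries (4.35 ± 2.12 FPKM against 1.13 ± 1.75 FPKM in the WT-labelled libraries for Dcn, 6.18 ± 1.96 against 4.35 ± 3.36 FPKM for Sparc) and did not pass (limma adjusted p = 0.0852 and 0.377). Pdgfra, which marks stromal progenitors, was at 0 in the KO-labelled libraries and at 0.19 to 0.214 FPKM in the WT-labelled libraries. The part of stromal RNA in these few reads was not tested.

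Hox proteins bind DNA with partners of the TALE class, named for a loop of 3 amino acids in their homeodomain. Of 8 tested TALE genes 2 fell, Pknox1 and Pbx4, beside 5.43% of all genes tested that were called lower. The main partner of Hoxa9, Meis1, was at 28, 23.5 and 30 FPKM in the KO-labelled and 24.8, 23.9 and 23 FPKM in the WT-labelled libraries, which overlap (log2 fold change 0.17 ± 0.12 SE, limma adjusted p = 0.376). Pknox1 stood at 6.36 ± 1.14 FPKM in the KO-labelled and 11.3 ± 1.45 FPKM in the WT-labelled libraries (limma adjusted p = 0.0217), and Pbx4 at 3.73 ± 0.281 and 6.54 ± 1.48 FPKM (limma adjusted p = 0.0456). Both calls were lost without WT-labelled replicate 1 (adjusted p = 0.0907 and 0.113), 2 (0.0631 and 0.18) or 3 (0.0733 and 0.0659) and without KO-labelled replicate 2 (0.0548 and 0.106), and that of Pbx4 also without KO-labelled replicate 1 (0.0808) or 3 (0.073). With both of these left out the adjusted p was 0.0541 for Pknox1 and 0.175 for Pbx4.

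Hox clusters are kept active by MLL-type methyltransferase complexes and elongation factors. Of 24 tested genes of this list, 1 rose and 2 fell, with a median log2 fold change of -0.1, where 5.48% of all genes tested were called higher and 5.43% lower. Mllt3, a component of the super elongation complex that is known to maintain human stem cells, rose to 7.73 ± 0.721 FPKM in the KO-labelled libraries, against 2.61 ± 0.456 FPKM in the WT-labelled libraries (limma adjusted p = 0.00259, log2 fold change 1.28 ± 0.17 SE). Its relative Mllt1 fell to 15.3 ± 1.25 FPKM, against 24.1 ± 0.929 FPKM in the WT-labelled libraries (limma adjusted p = 0.00987; 0.0586 without WT-labelled replicate 2). The acetyltransferase gene Kat6a fell to 3.29 ± 0.246 FPKM, against 5.48 ± 0.343 FPKM (limma adjusted p = 0.0372). Its call was lost without WT-labelled replicates 1, 2 and 3 and KO-labelled replicates 1 and 2 (adjusted p = 0.0888, 0.143, 0.125, 0.0613 and 0.0883). Kmt2a, the MLL1 enzyme, was at 1.62 ± 0.0612 FPKM in the KO-labelled and 2.62 ± 0.457 FPKM in the WT-labelled libraries and did not pass (adjusted p = 0.152). The Cdx factors Cdx1, Cdx2 and Cdx4, activators of Hox genes in the embryo, were at 0 in every library.

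Polycomb complexes keep silent Hox genes shut. Of 32 tested genes of Polycomb and related repressors, Ctcf, Dnmt3a and Dnmt3b among them, 1 passed, beside 10.9% of all genes called. Ezh2, the methyltransferase of Polycomb complex 2, fell to 10.7, 10.8 and 10.7 FPKM in the KO-labelled libraries, against 15.1, 18.3 and 19.5 FPKM in the WT-labelled libraries (limma adjusted p = 0.0132, log2 fold change -0.66 ± 0.13 SE). The call was lost without WT-labelled replicates 2 and 3 (adjusted p = 0.0715 and 0.0656) and without KO-labelled replicates 1 and 3 (0.0972). The list's median was -0.01. Bmi1, a subunit of Polycomb complex 1 needed by stem cells, was at 16.4 ± 1.45 FPKM in the KO-labelled and 15.2 ± 1.65 FPKM in the WT-labelled libraries (adjusted p = 0.656).

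**Figure D5:**
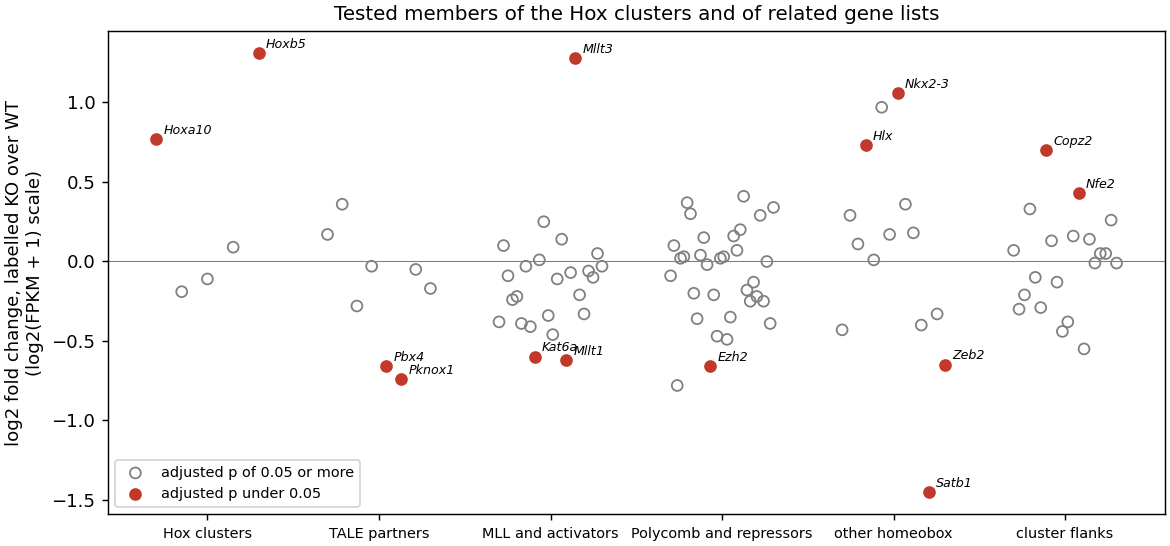
Log2 fold change on the log2(FPKM + 1) scale, labelled KO over labelled WT, of every tested member of the Hox clusters and of 5 lists; filled and named points have a limma adjusted p under 0.05 over all genes tested. Hoxb5 at 1.31, Mllt3 at 1.28 and Nkx2-3 at 1.06 are the highest called points, and Satb1 at -1.45 is the lowest.

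Of 14 tested homeobox genes outside the clusters, 2 rose and 2 fell, beside 10.9% of all genes called. Nkx2-3 was far above any Hox gene, at 242, 242 and 249 FPKM in the KO-labelled libraries and 126, 103 and 123 FPKM in the WT-labelled libraries (limma adjusted p = 0.000508, log2 fold change 1.06 ± 0.1 SE). Hlx was at 28.4, 16.8 and 22.8 FPKM in the KO-labelled and 14.1, 12.2 and 12.6 FPKM in the WT-labelled libraries (limma adjusted p = 0.0299), and its call was lost on leaving out any WT-labelled replicate or KO-labelled replicate 1 or 3 (adjusted p 0.0571 to 0.12). Satb1, a chromatin organiser of lymphoid progenitors, and Zeb2, a repressor, fell (-1.45 and -0.65, limma adjusted p = 0.00175 and 0.0475). The call of Zeb2 was lost on leaving out any single library but KO-labelled replicate 3 (adjusted p 0.0769 to 0.158).

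Genes next to the clusters share their chromosomal surroundings. Of 20 tested genes that flank the clusters 2 rose, with a list median of 0.02, and 5.48% of all genes tested were called higher. These were Copz2, a vesicle coat gene beyond HoxB (10.8 ± 1.93 FPKM in the KO-labelled and 6.23 ± 0.441 FPKM in the WT-labelled libraries, limma adjusted p = 0.0245), and Nfe2, a megakaryocyte factor beyond HoxC (158.7 ± 20.0 and 117.1 ± 6.48 FPKM, limma adjusted p = 0.0364). The call of Copz2 was lost on leaving out any library but KO-labelled replicate 3, and that of Nfe2 without any WT-labelled replicate or KO-labelled replicate 1 (adjusted p 0.0755 to 0.0911 and 0.0873 to 0.152). Of 16 noncoding and microRNA genes inside the clusters, 10 were at 0 in every library, among them Mir10a, Mir10b, Mir196b, Hotair and Hottip. A microRNA gene at 0 in such a library says nothing of the mature microRNA, which is too short to be captured.

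Of 22 tested genes known as targets of Hoxa9 and Meis1 in blood cells, 2 rose and 6 fell, with a median of -0.17 (5.48 and 5.43% of all genes tested). Cdk6 fell to 12.5, 13.9 and 16.7 FPKM in the KO-labelled libraries, against 27.2, 26.8 and 25.2 FPKM in the WT-labelled libraries (limma adjusted p = 0.00481). Flt3 and Cd34 fell and Pim1 rose (log2 fold changes -1.22, -0.72 and 3.01, limma adjusted p = 0.000567, 0.0042 and 0.000712). Flt3 and Cd34 are also markers that divide the LSK gate, and the groups differed in such markers. Of 8 tested gate markers 2 rose (Slamf1 and Procr) and 2 fell, the same Flt3 and Cd34, beside 10.9% of all genes called. Slamf1 (CD150), carried by long-term stem cells, was at 8.27, 9.06 and 12.4 FPKM in the KO-labelled and 0.942, 1.96 and 2.31 FPKM in the WT-labelled libraries (limma adjusted p = 0.00167). The call of Procr (limma adjusted p = 0.021) was lost without any WT-labelled replicate or KO-labelled replicate 2 (0.0559 to 0.0981). The part of the makeup of the gate in the rise of Hoxb5 and Hoxa10 was not tested.

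Markers of other cells are given beside the 5.48% of all genes tested that were called higher and the 5.43% called lower. Of 6 tested endothelial markers 3 rose (Tek, Tie1 and Esam, which stem cells also carry), with a summed level of 149.1 to 160.8 FPKM in the KO-labelled and 118.7 to 124.5 FPKM in the WT-labelled libraries. The defining marker Cdh5 was at most 0.139 FPKM. Emcn was at 3.42 to 4.87 FPKM in the KO-labelled and 3.23 to 3.76 FPKM in the WT-labelled libraries and did not pass (limma adjusted p = 0.428). Kdr (0.343 to 0.477 and 0.088 to 0.281 FPKM) and Vwf (1.11 to 1.59 and 0.428 to 0.648 FPKM) were not tested and were higher in every KO-labelled library. Pecam1 and Egfl7 had lower means in the KO-labelled libraries and did not pass (limma adjusted p = 0.421 and 0.219). Erythroid markers summed to 1077.6 to 2017.6 FPKM in the KO-labelled and 540.7 to 978.8 FPKM in the WT-labelled libraries, and 3 of 8 rose. Mast cell markers summed to 64.3 to 131.1 and 53.1 to 89.7 FPKM, and 2 of 6 rose. These were Cma1 (9.32 ± 4.8 against 0.149 ± 0.258 FPKM in the WT-labelled libraries) and Tpsb2 (8.13 ± 5.36 against 0 FPKM). Both entered the test through their KO-labelled values, so this count is given as a description. Cpa3 and Mcpt8 overlapped between the groups and did not pass (limma adjusted p = 0.831 and 0.65). Neutrophil markers summed to 29.2 to 165.4 FPKM in the KO-labelled and 117.7 to 243 FPKM in the WT-labelled libraries, macrophage markers to 21.6 to 39.4 and 30.9 to 38.4 FPKM, and T and NK markers to 193.5 to 300.9 and 357.6 to 420.8 FPKM. Of the tested ones 1 of 5 macrophage markers fell, and 1 of 5 T and NK markers rose (Klrb1c) and 1 fell (Nkg7). Klrb1c was at 3.32, 2.05 and 2.18 FPKM in the KO-labelled and 0.811, 0.691 and 0.216 FPKM in the WT-labelled libraries (limma adjusted p = 0.0195). Klrb1c averaged under 1 FPKM in the WT-labelled libraries and entered the test through its KO-labelled values, so its rise is given as a description. Trac was at 4.7, 1.05 and 0.446 FPKM in the KO-labelled and 0.776, 0.413 and 0.775 FPKM in the WT-labelled libraries and did not pass (limma adjusted p = 0.384). Nearly all of the T and NK sum was Nkg7 (187 to 291 FPKM in the KO-labelled and 352 to 417 FPKM in the WT-labelled libraries), while the defining markers Cd3g and Ncr1 were at 0 in every library and Cd3e and Cd3d at most 0.238 FPKM. B and plasma cell markers summed to 227.7 to 3703.7 and 429.5 to 450.6 FPKM. Of 8 tested neutrophil markers 0 were called, and of 8 tested B and plasma cell markers 0 were called. The part of these cells in the Hox results was not tested.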

How the data were processed

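RNA was sequenced from sorted LSK cells, with cDNA from the SMART-Seq v4 kit and Nextera XT libraries per the labels' protocols, so strand was not kept. Values were deposited as FPKM, scaled by the authors per kilobase and per depth. The submitters' processing notes name TopHat2 2.1.1, HTSeq 0.6.1, DESeq2 1.18.1, bcl2fastq 2.19.1.403 and mm10 without roles; their gene annotation is not given in these sources.

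Per gene, FPKM values stood to each other as whole numbers after a divisor per library, which held for each of the 17183 genes seen in at least 2 libraries (to within 1e-11 of the value). Reads were set to give the exon length of GENCODE M21 where that was a whole multiple, and otherwise are lower bounds (16 of the 27 Hox genes with a read). Implied and GENCODE lengths of the tested Hox genes differ by at most 0.933%. Untested members can differ more: the implied length was at least 1731 bases for Hoxa6 and 4149 for Hoxb4, against 874 and 2566 in GENCODE M21. Floors of 3 reads cover counting error only, and the 95% intervals of fold changes come from limma, from the spread between libraries.

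The 2 groups of 3 libraries were compared on log2(FPKM + 1) by limma-trend (limma 3.58.1, R 4.3.3), with no covariate, where the mean over the 6 libraries reached 1 FPKM. The fit was tested on simulated data. Alternatives were another pseudocount, other limits on low values, TPM, voom with TMM on recovered reads, a replicate block, and leaving out libraries. List members were matched by symbol or by a RefSeq synonym. From each list up to 4 called members by smallest p are named, with Meis1; others named were chosen after their values were seen. Some genes and sequences are not reported here. The members and lists were chosen with earlier results of these data known. Python 3.11.15, numpy 2.4.6, pandas 2.3.3, scipy 1.17.1 and matplotlib 3.10.9 did the rest.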

Additional observations from a re-analysis of the deposited data

How the results depend on the processing

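Hoxa9, Hoxa7 and Hoxa5 kept their direction and stayed unpassed in every alternative that gave a value, and Hoxb5 stayed called. The Hox genes called were 2 in the fit of all 6 libraries, 1 with a mean of at least 5 FPKM (which leaves Hoxb5 untested), 1 without KO-labelled replicates 1 and 3, and 1 to 2 on leaving out single libraries. All genes called were 1240, and 588 without a limit on low values, 805 with the replicate block, 514 without KO-labelled replicates 1 and 3, and 370 to 1598 on leaving out single libraries (531, 370 and 509 without WT-labelled replicates 1, 2 and 3, and 824 without KO-labelled replicate 1). Where a setting tests more genes or uses fewer samples, its construction bears on the count; otherwise the cause was not tested.

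TALE genes called (2) came to 0 without a limit (2 at an unadjusted p under 0.05), 1 with a mean of at least 5 FPKM, 1 with voom, 1 with the block, 0 without KO-labelled replicates 1 and 3 and 0 to 1 without single libraries. Activators (3) were 5 with voom and 1 to 4 without single libraries. Repressors (1) were 2 in TPM, 5 with voom, 0 without KO-labelled replicates 1 and 3 and 0 to 3 without single libraries. Other homeobox genes (4) were 2 without a limit, 2 without KO-labelled replicates 1 and 3 and 2 to 3 without single libraries. Flanking genes (2) were 0 without a limit (6 at an unadjusted p under 0.05), 1 with the block, 0 without KO-labelled replicates 1 and 3 and 0 to 3 without single libraries. Targets (8) were 5 without a limit and 5 to 9 without single libraries. Meis1 changed sign without KO-labelled replicates 1 and 3 (-0.02) and Ly6a without KO-labelled replicate 1 (-0.03, within -0.03 to 0.21 over single libraries left out); neither passed in any fit.

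Whether replicate numbers pair the libraries could not be settled. Deviations from the group means of same-numbered libraries correlated at -0.031, 0.045 and -0.116 across genes, and those of differently numbered libraries at -0.155 to 0.171. With 3 libraries per group such values cannot exclude pairing. The block left Hoxa10 and Hoxb5 called. The difference in the log2 ratio of Hoxa10 to Hoxa9 was 0.67 to 0.84 on leaving out single libraries, an alternative chosen after seeing the data. Depth limits the 33 Hox genes under 1 FPKM, where a difference of a few reads was not detectable.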
